A study of Mus musculus with 12 samples.

Results

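The proneural and neurogenic basic helix-loop-helix (bHLH) factors described here are Neurog1, Neurog2, Neurod1, Neurod2, Neurod4, Nhlh1, Nhlh2 and Atoh1. They were read on Affymetrix arrays by every probe set whose single gene symbol in the platform annotation is one of these 8 genes, which gave 14 probe sets of the 45037 that are no controls, and 8 genes of the 18193 with a probe set of their own. Neurod2 and Neurod4 have 3 probe sets each, Neurog1 and Neurod1 have 2 each, and the other 4 genes have 1 each. The RNA came from mouse embryonic stem (ES) cells differentiated towards neural cells as a monolayer in N2B27, a serum-free medium. A tetracycline-inducible line, rtTA-Dmrt5, was compared with its parental line, rtTA, and cells of either line were given doxycycline (Dox) or not from day 5 of differentiation. The 12 arrays form 6 groups of 2: rtTA-Dmrt5 at day 7 with and without Dox, rtTA-Dmrt5 at day 9 with and without Dox, and rtTA at day 7 with and without Dox. By its name each line carries rtTA, the activator that Dox switches on, and rtTA-Dmrt5 carries the Dmrt5 transgene besides. The promoter that drives rtTA, and whether a line is a single clone, are not stated in the labels. No label says that replicates were separate cultures, so the p-values measure only the spread between these samples, which may be technical.

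bHLH factors of this kind pair with broadly expressed E-proteins and bind short DNA motifs called E-boxes. Neurog1 and Neurog2 act in dividing progenitors and commit them to become neurons, Neurod1, Neurod2 and Neurod4 act mostly later in differentiating neurons, Nhlh1 and Nhlh2 are on in newborn neurons, and Atoh1 specifies cerebellar granule cells and other rhombic lip neurons. Hes and Hey factors, induced by Notch signalling, repress proneural genes, and Id proteins take E-proteins away from them.

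Each deposited value is a log2 difference from the probe set's own median over the 12 arrays, so values can be set between groups but give no expression level and cannot be compared between probe sets. The only reading of level is a coarse class of each probe set's median, taken from the spacing of the stored numbers. Changes are log2 differences with the standard error (SE) from limma, n = 2 arrays per group, and a probe set was called changed at an adjusted p under 0.05 (Benjamini-Hochberg over all 45037 probe sets). The number of arrays limits the precision, and replicate arrays differed by 0.23 to 0.31 (root mean square over probe sets). In bulk RNA, fewer cells of a type and less RNA per cell cannot be told apart.

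Dmrt5 is another name of Dmrta2, and its probe set checks the labels. It read -0.14 and -0.95 in the rtTA-Dmrt5 arrays labelled +Dox at day 7, against 1.91 and 1.85 in those labelled -Dox. At day 9 it read -1.07 and -1.92 in the arrays labelled +Dox, against 1.07 and 1.16 in those labelled -Dox. Where the transgene should be on, Dmrta2 thus fell by 2.42 at day 7 and fell by 2.61 at day 9 on the log2 scale (limma adjusted p = 0.00318 and 0.000823). In rtTA cells it read 0.41 and -0.28 in the arrays labelled +Dox, against -0.22 and 0.14 in those labelled -Dox. The rtTA-Dmrt5 arrays labelled -Dox at day 7 were above the rtTA arrays labelled -Dox by 1.92 ± 0.33 (limma adjusted p = 0.00323). The sources used here do not say where on the transcript its probes lie, and a probe set that reads no transgene RNA would check nothing. The arrays are therefore called "labelled +Dox" and "labelled -Dox", and every direction below rests on these labels.

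Control probe sets differed with the Dox label and between the lines. In the hybridisation spike-in probe sets, the day 9 arrays labelled +Dox stood furthest apart. These probe sets averaged -0.72 there, against 0.09 in the day 9 arrays labelled -Dox. At day 7 they averaged -0.18 and 0.14 in rtTA-Dmrt5 arrays labelled +Dox and -Dox, and -0.15 and 0.13 in rtTA arrays labelled +Dox and -Dox. Every array labelled +Dox had a lower spike-in average than any array labelled -Dox. The 3'-minus-5' difference of the actin (Actb) control probe sets, which follows RNA integrity and amplification, was 0.21 in the day 9 arrays labelled +Dox and -0.02 in those labelled -Dox. Each actin probe set is centred on its own median, so this difference compares arrays and is no absolute ratio. At day 7 it was -0.04 and 0.06 in rtTA-Dmrt5 arrays labelled +Dox and -Dox, and -0.22 and -0.32 in rtTA arrays labelled +Dox and -Dox. The part of these differences in the results below was not tested. Values of day 7 comparisons fitted without the day 9 arrays labelled +Dox are given where a call changed.

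The annotated promoters of the 4 genes with a called Dox response, and of Neurog2 as their contrast, are shown because the genes encode factors that bind E-boxes and can act on each other's promoters. Each is a RefSeq window of 300 bases on GRCm38.p6, with 250 bases before the annotated start and 50 from it, written 5' to 3' on the gene's strand. Capitals mark the E-box CANNTG. All 8 genes were found in the RefSeq promoter table, with 9 windows, since Neurod4 has 2 annotated starts.
Nhlh1, chr1:172057547-172057846, minus strand: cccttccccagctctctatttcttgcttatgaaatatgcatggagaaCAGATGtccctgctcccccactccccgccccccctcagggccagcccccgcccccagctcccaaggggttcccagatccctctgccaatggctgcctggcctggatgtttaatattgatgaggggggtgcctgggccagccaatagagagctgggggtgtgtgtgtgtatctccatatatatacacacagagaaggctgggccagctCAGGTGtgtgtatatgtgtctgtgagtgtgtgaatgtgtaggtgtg
Neurod4, chr10:130280089-130280388, minus strand: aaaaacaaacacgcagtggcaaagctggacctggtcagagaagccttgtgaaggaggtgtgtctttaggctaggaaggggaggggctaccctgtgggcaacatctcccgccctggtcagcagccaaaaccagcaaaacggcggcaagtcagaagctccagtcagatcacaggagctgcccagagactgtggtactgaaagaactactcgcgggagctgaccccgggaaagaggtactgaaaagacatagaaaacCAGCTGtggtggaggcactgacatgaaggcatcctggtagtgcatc
Neurod1, chr2:79456587-79456886, minus strand: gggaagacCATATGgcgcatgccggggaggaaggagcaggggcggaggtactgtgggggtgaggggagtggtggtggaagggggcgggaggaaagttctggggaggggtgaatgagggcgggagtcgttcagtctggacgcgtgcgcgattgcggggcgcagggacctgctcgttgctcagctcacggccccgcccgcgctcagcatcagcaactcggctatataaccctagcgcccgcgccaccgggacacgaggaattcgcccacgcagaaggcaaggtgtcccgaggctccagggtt
Neurog1, chr13:56252131-56252430, minus strand: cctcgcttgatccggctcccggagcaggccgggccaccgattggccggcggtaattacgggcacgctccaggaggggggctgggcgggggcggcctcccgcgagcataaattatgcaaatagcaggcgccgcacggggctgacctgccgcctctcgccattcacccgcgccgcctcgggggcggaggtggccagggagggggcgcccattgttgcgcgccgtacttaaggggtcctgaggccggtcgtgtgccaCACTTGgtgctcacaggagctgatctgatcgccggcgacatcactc
Neurog2, chr3:127632886-127633185, plus strand: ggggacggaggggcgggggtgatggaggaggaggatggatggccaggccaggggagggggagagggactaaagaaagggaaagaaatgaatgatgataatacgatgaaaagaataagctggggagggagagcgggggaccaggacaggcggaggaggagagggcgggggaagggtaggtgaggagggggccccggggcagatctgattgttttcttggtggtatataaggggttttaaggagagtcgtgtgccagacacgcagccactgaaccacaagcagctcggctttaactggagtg
The palindromic motif CANNTG was present in 6 of the 9 windows, and 72.3% of 32851 promoter windows of the same length hold it. The N-box, CACNAG on either strand, which Hes factors bind, was present in 6 of the 9 windows, and 42.5% of all windows hold it. The Neurod4 windows overlap and share an N-box. By gene, 5 of the 8 have an N-box and 6 of the 8 have CANNTG. No E-box overlapped an N-box in these windows. Nhlh1 has the E-box CAGATG at -203 and CAGGTG at 5, counted from the first transcribed base as 1, and no N-box. Neurog2 has no CANNTG and has the N-box CACAAG at 23. The other Neurod4 window, which starts 5' of the one shown, has no CANNTG and 2 N-boxes. Among the windows not shown, of genes with no called Dox response, that of Nhlh2 has 4 CANNTG, that of Neurod2 3 and that of Atoh1 none. A match describes the letters in the window and is no measured binding site.

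The day 7 arrays of rtTA-Dmrt5 cells, labelled +Dox against labelled -Dox, were compared for the levels of neurogenic factors. Nhlh1, Neurod4 and Neurod1 were lower in the arrays labelled +Dox, and no bHLH probe set was called higher. In all, 4 of the 14 probe sets were called, all lower, where 1.79% of all probe sets were called lower and 1.26% higher (3.05% in either direction). The median change of the 14 was -0.51, beside 0.01 over all probe sets. In 12 of the 14 the replicates of the groups did not overlap, 11 lower and 1 higher, where 50.8% of all probe sets were apart, 23.1% lower and 27.7% higher.

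Nhlh1, a factor of newborn neurons, had the largest change among the 14 at day 7. It read -0.78 and -0.98 in the arrays labelled +Dox at day 7, against 0.88 and 0.71 in those labelled -Dox. Its day 9 values were 0.11 and 0.12 in the arrays labelled +Dox, against 1.30 and 1.25 in those labelled -Dox. The arrays labelled +Dox were the lower ones at either day, without overlap, and the lowest Nhlh1 values of all 12 arrays were those of day 7 with Dox. Nhlh1 fell by 1.67 (SE 0.14; 3.19-fold lower; limma adjusted p = 0.000247) at day 7 and by 1.16 (SE 0.14; 2.23-fold lower; limma adjusted p = 0.000772) at day 9. Its promoter is the window above with E-boxes on either side of the start.

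Neurod4, which acts with other bHLH factors in the step from progenitor to neuron, changed in 2 of its 3 probe sets. The probe set 1418054_at read -1.10 and -1.20 in the day 7 arrays labelled +Dox, against 0.35 and 0.30 in those labelled -Dox. The probe set 1436694_s_at, whose suffix marks probes that may match more than one transcript, read -0.69 and -1.15 in the arrays labelled +Dox, against 0.58 and 0.72 in those labelled -Dox. In either probe set the arrays labelled +Dox lay below all other groups of day 7, and the parental arrays lay between -0.50 and 0.29. The falls at day 7 were 1.48 for 1418054_at (log2 change -1.48 ± 0.18 SE, limma adjusted p = 0.00194) and 1.57 for 1436694_s_at (log2 change -1.57 ± 0.20 SE, limma adjusted p = 0.00238). The third probe set, 1418055_at, in a dimmer class (median log2 level of 2 to 4, against 4 to 8 for the other two, as read from the spacing of the stored numbers), was not called, at -0.37 ± 0.18 (limma adjusted p = 0.375). At day 9 the same pair of probe sets fell, with changes of -0.96 ± 0.18 and -1.14 ± 0.20 (limma adjusted p = 0.00665 and 0.00453), and 1418055_at was at -0.30 ± 0.18 (limma adjusted p = 0.286).

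Neurod1, a differentiation factor that is switched on downstream of the neurogenins, was lower in the arrays labelled +Dox by both of its probe sets, of which 1 passed the threshold at day 7 and both at day 9. The probe set 1426412_at read 0.02 and -0.23 in the day 7 arrays labelled +Dox, against 0.71 and 0.83 in those labelled -Dox. At day 9 it read -0.02 and 0.07 in the arrays labelled +Dox, against 1.05 and 1.07 in those labelled -Dox. No array labelled +Dox reached an array labelled -Dox of the same line and day. The changes were -0.87 ± 0.17 (SE; limma adjusted p = 0.0214) at day 7 and -1.04 ± 0.17 (limma adjusted p = 0.00268) at day 9. For 1426413_at they were -0.81 ± 0.29 (limma adjusted p = 0.203) at day 7 and -1.14 ± 0.29 (limma adjusted p = 0.0219) at day 9. The day 7 call of 1426412_at was lost whichever of the 4 rtTA-Dmrt5 arrays of that day was left out, with limma adjusted p from 0.0538 to 0.18. It was lost, too, when only the arrays compared were fitted (limma adjusted p = 0.053). With 1 row per gene, Neurod1 was called lower at day 7 (-0.84, limma adjusted p = 0.00932). The day 9 call of 1426413_at was lost without replicate 1 of the arrays labelled +Dox (limma adjusted p = 0.124) and without replicate 1 or 2 of those labelled -Dox (limma adjusted p = 0.0558 and 0.112). Its day 7 change passed in 4 of 20 alternatives. These were the fits without either rtTA array labelled -Dox, after quantile normalization (limma adjusted p = 0.031) and with only the arrays compared (limma adjusted p = 0.0442).

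The 2 neurogenins, which start the cascade in progenitors, had changes of opposite sign, of which those of Neurog1 at day 9 passed the threshold. Neurog1, by its brighter probe set 1438551_at, read 0.41 and 0.18 in the day 7 arrays labelled +Dox, against 1.20 and 1.34 in those labelled -Dox. At day 9 it read -0.18 and -0.70 in the arrays labelled +Dox, against 1.19 and 1.17 in those labelled -Dox. Its groups did not overlap at either day, and its values without Dox were nearly the same at the 2 days. The day 7 change was -0.98 ± 0.23 (SE) and narrowly missed the threshold (limma adjusted p = 0.0554). Of 20 alternatives for this probe set, 9 brought the change past the threshold and the others did not. It passed in the fit without one or both day 9 arrays labelled +Dox (limma adjusted p = 0.0457) and without either rtTA array labelled -Dox (limma adjusted p = 0.0311). It also passed with array quality weights (limma adjusted p = 0.0167) and after quantile normalization (limma adjusted p = 0.00459). It passed, too, with only the arrays compared (limma adjusted p = 0.04) and with a level class of at least 4 (limma adjusted p = 0.0398). With 1 row per gene, Neurog1 was called lower at day 7 (-0.74, limma adjusted p = 0.00923). At day 9 Neurog1 fell by 1.62 (SE 0.23; 3.08-fold lower; limma adjusted p = 0.00154). The dimmer probe set 1450836_at gave -0.51 ± 0.20 (limma adjusted p = 0.261) at day 7 and -0.68 ± 0.20 (limma adjusted p = 0.0434) at day 9. That day 9 call was lost without replicate 1 or 2 of the day 9 arrays labelled +Dox (limma adjusted p = 0.131 and 0.123) and without replicate 2 of those labelled -Dox (limma adjusted p = 0.231). It was lost without either rtTA array labelled -Dox (limma adjusted p = 0.052) or labelled +Dox (limma adjusted p = 0.05) as well, and with array quality weights, after quantile normalization and with only the arrays compared (limma adjusted p = 0.0946, 0.107 and 0.0765).

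Neurog2 was on the higher side in the arrays labelled +Dox, but its change did not pass the threshold. It read 0.56 and 0.22 in the day 7 arrays labelled +Dox, against -0.33 and -0.22 in those labelled -Dox. Day 9 values of Neurog2 were 0.79 and 0.88 in the arrays labelled +Dox, against 0.57 and 0.47 in those labelled -Dox. Replicates of the groups were apart at either day, with the arrays labelled +Dox higher. The changes were 0.66 ± 0.26 (SE; limma adjusted p = 0.256) at day 7 and 0.31 ± 0.26 (limma adjusted p = 0.457) at day 9. No alternative setting brought Neurog2 past the threshold in a Dox response.

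Neurod2, a factor of maturing neurons, did not pass the threshold in a Dox response with any of its 3 probe sets. Its most variable probe set, 1435411_at, read -0.57 and 0.01 in the day 7 arrays labelled +Dox, against -0.01 and -0.19 in those labelled -Dox. At day 9 it read 1.61 and 1.20 in the arrays labelled +Dox, against 1.04 and 0.56 in those labelled -Dox. The day 7 arrays overlapped, while at day 9 the arrays labelled +Dox were the higher ones, by 0.61 ± 0.23 (limma adjusted p = 0.096). The probe set 1418995_at gave -0.41 ± 0.17 (limma adjusted p = 0.28) at day 7 and -0.22 ± 0.17 (limma adjusted p = 0.422) at day 9. The third, 1444362_at, changed by -0.03 ± 0.27 at either day (limma adjusted p = 0.981 and 0.959), and its values in the 12 arrays ran between -0.35 and 0.36 with no group apart from the rest.

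Nhlh2, the close relative of Nhlh1, was not called. It read -0.04 and -0.24 in the day 7 arrays labelled +Dox, against 0.23 and 0.15 in those labelled -Dox, and 0.04 and 0.54 in the day 9 arrays labelled +Dox, against 0.63 and 0.73 in those labelled -Dox. The direction was that of Nhlh1, with changes of -0.33 ± 0.22 (SE; limma adjusted p = 0.536) and -0.39 ± 0.22 (limma adjusted p = 0.247). Atoh1 was in a dim class (median log2 level of 2 to 4) and read -0.02 and -0.64 in the day 7 arrays labelled +Dox, against 0.33 and 0.02 in those labelled -Dox. Day 9 values of Atoh1 were -0.06 and 0.23 in the arrays labelled +Dox, against -0.07 and -0.38 in those labelled -Dox. Its changes had opposite signs at the 2 days, -0.50 ± 0.21 (limma adjusted p = 0.291) and 0.31 ± 0.21 (limma adjusted p = 0.341), and neither passed.

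**Figure D1:**
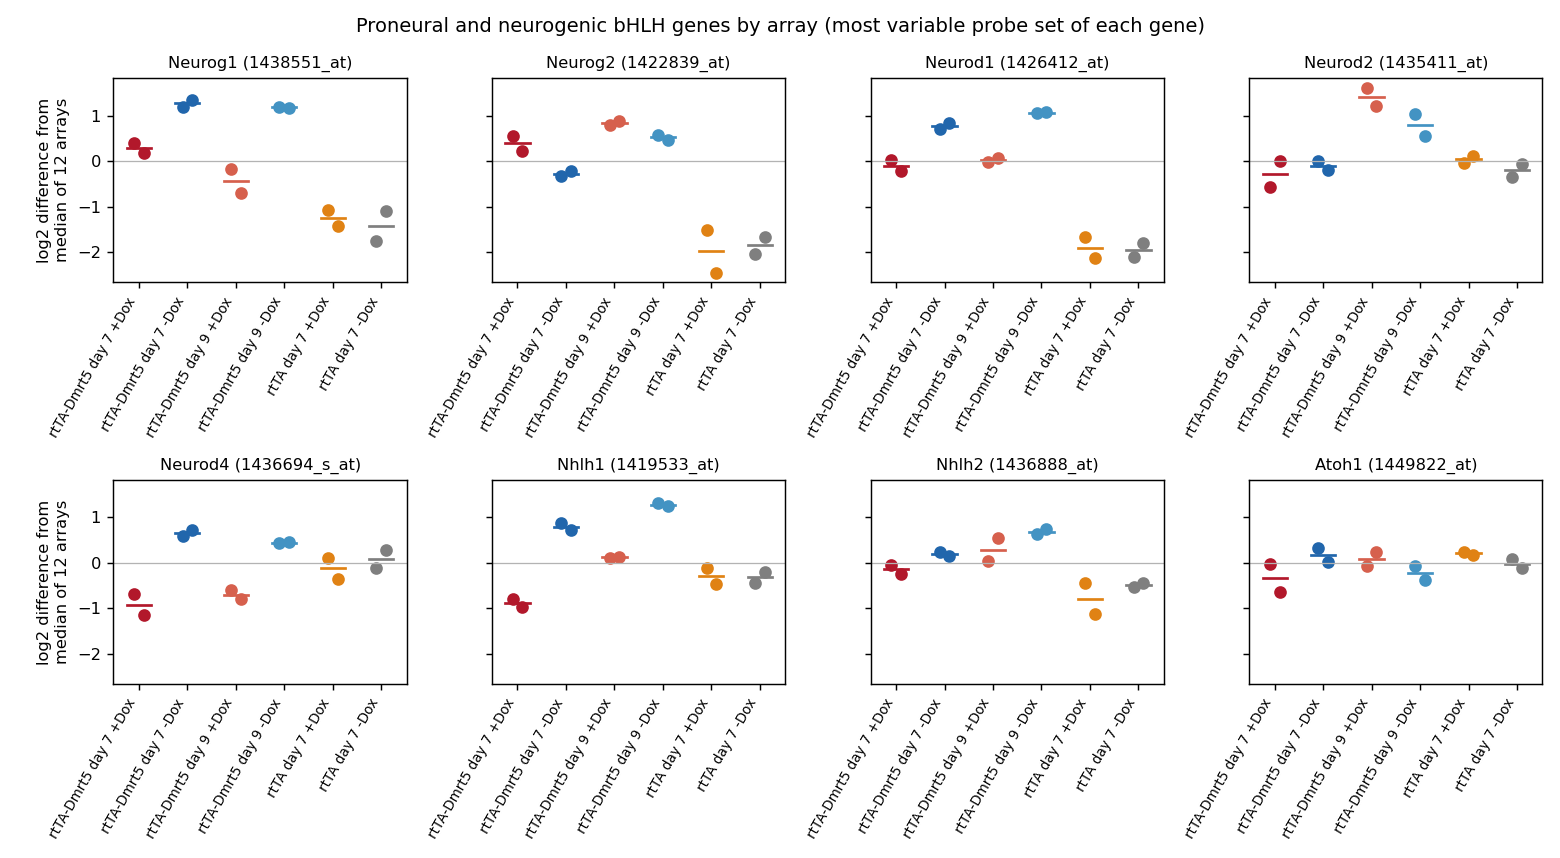
Log2 difference from the probe set's median over the 12 arrays (y axis) for the most variable probe set of each of the 8 bHLH genes in the 6 groups (x axis); points are arrays and lines are group means. Nhlh1 sits at -0.98 and -0.78 in the rtTA-Dmrt5 day 7 arrays labelled +Dox, against 0.71 and 0.88 in those labelled -Dox, and Neurog1, Neurog2 and Neurod1 are lowest in the parental arrays.

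At day 9, 7 of the 14 probe sets were called lower in the arrays labelled +Dox, those of Neurog1, Neurod1, Neurod4 and Nhlh1, and none higher. Over all probe sets 7.95% were called lower and 10.3% higher at day 9 (18.3% in either direction). The median change of the 14 was -0.54, beside -0.02 over all probe sets. Replicates were apart in 12 of the 14, 9 lower and 3 higher, where 56.5% of all probe sets were apart, 29.2% lower and 27.4% higher. The 3 on the higher side were Neurog2, Neurod2 by 1435411_at and Atoh1. The parental line was not measured at day 9, so the day 9 response stands without a parental control. The difference between the 2 days in the Dox response was called for 0 of the 14 probe sets in limma, where 0.639% of all probe sets were called. At an unadjusted p under 0.05, which 14.6% of all probe sets had, 3 of the 14 passed: Nhlh1 (0.52 ± 0.20), Neurod2 by 1435411_at (0.79 ± 0.32) and Atoh1 (0.81 ± 0.29), with positive differences because Nhlh1 fell less at day 9 than at day 7, and Neurod2 and Atoh1 had negative changes at day 7 and positive ones at day 9 (limma adjusted p from 0.243 to 0.297).

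In the parental rtTA line, which by its name has no Dmrt5 transgene, none of the 14 probe sets was called in the arrays labelled +Dox against those labelled -Dox. The limma fit called 0 of all 45037 probe sets there, that is 0%, while 2323 had an unadjusted p under 0.05, of which 0 were bHLH probe sets. The 14 changes ran from -0.30 to 0.25, and the replicates of 2 were apart, both higher, where 33.2% of all probe sets were apart, 16.9% higher and 16.3% lower. Nhlh1 read -0.11 and -0.46 in the rtTA arrays labelled +Dox, against -0.44 and -0.20 in those labelled -Dox, and Neurog1 by 1438551_at read -1.06 and -1.42 in the rtTA arrays labelled +Dox, against -1.76 and -1.10 in those labelled -Dox. The groups overlapped in both genes.

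The difference between the lines in the Dox response at day 7 was called for Nhlh1 alone among the 14, at -1.71 ± 0.20 (limma adjusted p = 0.00452), where 0.739% of all probe sets were called lower and 0.3% higher (1.04% in either direction). Nhlh1 changed by -1.67 in rtTA-Dmrt5 cells and by 0.03 in rtTA cells. The 2 brighter probe sets of Neurod4 came near the threshold, 1436694_s_at at -1.36 ± 0.29 (limma adjusted p = 0.0657) and 1418054_at at -1.22 ± 0.26 (limma adjusted p = 0.0673). Neurod1 by 1426412_at was at -0.93 ± 0.23 (limma adjusted p = 0.123), Neurog1 by 1438551_at at -1.17 ± 0.33 (limma adjusted p = 0.164) and Neurog2 at 0.79 ± 0.37 (limma adjusted p = 0.427). These differences depend on the processing, and most alternatives left them uncalled. Of 20 alternatives per probe set, Neurod4 passed in 4 by 1418054_at and in 2 by 1436694_s_at. Neurog1 by 1438551_at and Neurod1 by 1426412_at passed in 1 of 20 each. After quantile normalization, Neurog1 by 1438551_at, Neurod1 by 1426412_at and Neurod4 by 1418054_at and 1436694_s_at passed (limma adjusted p = 0.0347, 0.0161, 0.03 and 0.0245). With a level class of at least 4 both Neurod4 probe sets passed (limma adjusted p = 0.0466), with array quality weights 1418054_at did (limma adjusted p = 0.0411), and with 1 row per gene Neurog1 did (-0.94, limma adjusted p = 0.0299). Without replicate 2 of the rtTA arrays labelled +Dox, Neurod4 by 1418054_at passed at -1.53 (limma adjusted p = 0.0138).

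**Figure D2:**
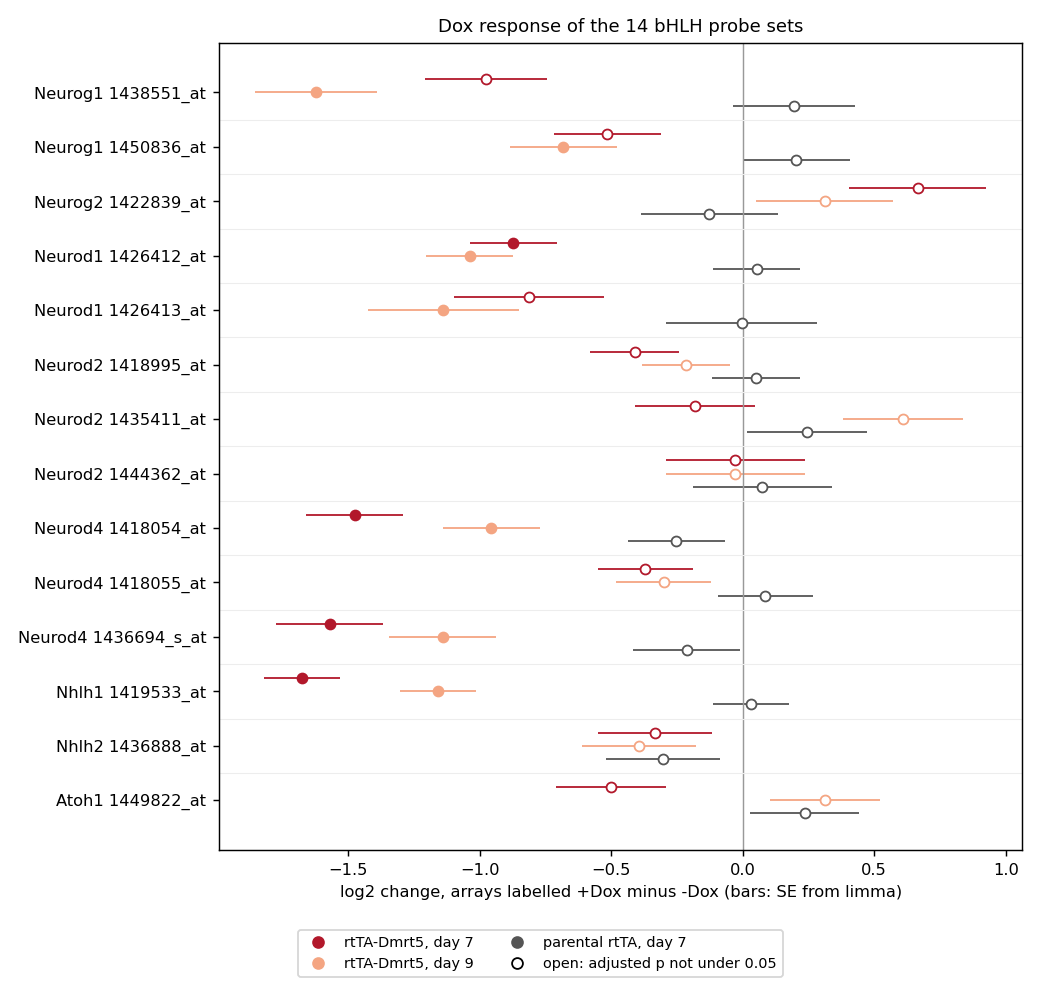
Log2 change, arrays labelled +Dox minus arrays labelled -Dox (x axis), for the 14 bHLH probe sets (y axis) in rtTA-Dmrt5 cells at day 7 and day 9 and in parental rtTA cells at day 7; bars are SE from limma and filled points passed adjusted p 0.05. Filled points lie between -1.67 and -0.68 in rtTA-Dmrt5 cells, and the parental points lie between -0.30 and 0.25 and are all open.

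Without Dox at day 7, rtTA-Dmrt5 cells were set against rtTA cells to see how far the lines already differed. Several genes of the neurogenic cascade were higher in rtTA-Dmrt5 cells: 6 of the 14 probe sets were called higher, those of Neurog1, Neurog2, Neurod1 and Nhlh1, and none lower, where 8.72% of all probe sets were called higher and 9.95% lower (18.7% in either direction). The median difference of the 14 was 0.62, and in 9 of the 14 the replicates were apart and higher, where 60% of all probe sets were apart, 28.8% higher and 31.1% lower. The comparison shares the rtTA-Dmrt5 arrays labelled -Dox with the day 7 Dox response, so the 2 sets of values are not independent. The actin 3'-minus-5' difference also set these groups apart, at 0.06 in rtTA-Dmrt5 and -0.32 in rtTA arrays labelled -Dox. Its part in the differences between the lines was not tested.

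Between the arrays labelled -Dox, Neurod1 and Neurog1 had the largest differences of the 14. Neurod1 by 1426412_at read 0.71 and 0.83 in rtTA-Dmrt5 cells without Dox, against -2.10 and -1.80 in rtTA cells without Dox, which is 6.59-fold higher (2.72 ± 0.17 SE, limma adjusted p = 9.55e-06). Its other probe set was higher by 2.43 ± 0.29 (limma adjusted p = 0.000421). Neurog1 by 1438551_at was higher by 2.70 ± 0.23, which is 6.5-fold (limma adjusted p = 6.26e-05), and by 1450836_at by 0.77 ± 0.20 (limma adjusted p = 0.0259). This last call was lost without replicate 1 or 2 of the rtTA arrays labelled -Dox (limma adjusted p = 0.0576 and 0.14) and without replicate 2 of the rtTA-Dmrt5 arrays labelled -Dox (limma adjusted p = 0.186). Neurog2 read -0.33 and -0.22 in rtTA-Dmrt5 cells, against -2.03 and -1.67 in rtTA cells, and was higher by 1.57 ± 0.26 (limma adjusted p = 0.00265). Nhlh1 was higher by 1.11 ± 0.14 (limma adjusted p = 0.000726). This comparison, too, rests on the labels. The rtTA-Dmrt5 arrays labelled +Dox minus the rtTA arrays labelled -Dox, as group means with no test, gave 2.24 for Neurog2, 1.85 and 1.62 for Neurod1, 1.73 and 0.25 for Neurog1, -0.56 for Nhlh1 and -1.21 for Neurod4 by 1418054_at. Neurod4 by 1418054_at was at 0.27 ± 0.18 with the rtTA-Dmrt5 arrays labelled -Dox and was not called. Among these values, the order of the genes and the signs of Nhlh1 and Neurod4 therefore depend on which rtTA-Dmrt5 arrays had no Dox.

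Nhlh2 came near the threshold between the lines at 0.68 ± 0.22 (limma adjusted p = 0.0549), with 0.23 and 0.15 in rtTA-Dmrt5 cells above -0.52 and -0.45 in rtTA cells. Of 20 alternatives, 9 brought Nhlh2 past the threshold and the others did not. It passed in the fit without one or both day 9 arrays labelled +Dox (limma adjusted p = 0.0401) and without either rtTA array labelled +Dox (limma adjusted p = 0.0199). Neurod4 (0.20 to 0.56), Neurod2 (0.11 to 0.23) and Atoh1 (0.20 ± 0.21) were not called. The rtTA-Dmrt5 day 7 arrays labelled +Dox were above the parental ones in Neurod1 by both probe sets and in Neurog1 by its brighter one: 0.41 and 0.18 for Neurog1 by 1438551_at in the rtTA-Dmrt5 day 7 arrays labelled +Dox stood against -1.76 to -1.06 in the 4 parental arrays. By 1450836_at they overlapped, with -0.15 and 0.19 against -0.37 to 0.10. Neurod4 showed another order, with rtTA-Dmrt5 day 7 arrays labelled +Dox below the parental ones.

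The lines differed in markers of other states as well. Of 10 measured ES-cell markers, 8 were lower and 1 higher in rtTA-Dmrt5 cells than in rtTA cells without Dox (median log2 difference -2.34), with Pou5f1, the pluripotency factor Oct4, at -3.44 ± 0.17 (limma adjusted p = 3.08e-06) and Klf4 on the higher side at 2.29 ± 0.19 (limma adjusted p = 6.03e-05). The mean of this list lay between -1.15 and -1.08 in rtTA-Dmrt5 arrays labelled -Dox, against 0.58 to 0.63 in rtTA arrays labelled -Dox. Of 17 pan-neuronal genes 2 were higher and 8 lower in rtTA-Dmrt5 cells (median -0.58), among the lower ones Gap43, a growth cone protein, at -1.04 ± 0.11 (limma adjusted p = 0.000264). Both measured E-proteins, Tcf3 (-0.92 ± 0.19) and Tcf12 (-1.29 ± 0.32), were lower, while of 12 other neural bHLH activators Olig2 (2.34 ± 0.20), Olig1 (0.92 ± 0.12) and Tal2 (0.87 ± 0.16) were higher and none lower. Of 11 cell cycle genes 7 were lower and 0 higher (median -0.63). Of 11 mesoderm and endoderm markers 4 were higher and 1 lower, and of 10 surface epithelium markers 6 were higher and 3 lower (median 0.88). Of 24 proneural targets and commitment genes 1 was higher and 6 were lower (median -0.26). Over all 18193 genes, 13.2% were higher and 13.3% lower. The part of these markers in the bHLH differences was not tested.

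From day 7 to day 9 without Dox, 1 bHLH probe set was called, while many neuronal genes were higher. It was Neurod2 by 1435411_at, higher at day 9 with 1.04 and 0.56, against -0.01 and -0.19 at day 7 (0.90 ± 0.23, limma adjusted p = 0.042). No other of the 14 was called, where 4.29% of all probe sets were called higher and 3.37% lower (7.65% in either direction). Replicates were apart in 10 of the 14, 7 higher and 3 lower, where 52.4% of all probe sets were apart, 25.2% higher and 27.2% lower. Neurog2 (0.80 ± 0.26, limma adjusted p = 0.101) and Nhlh1 (0.48 ± 0.14, limma adjusted p = 0.0767) were on the higher side without passing. Neurog1 by 1438551_at was at -0.08 ± 0.23. With only the arrays compared, the Neurod2 call was lost (limma adjusted p = 0.0704) and Neurog2 passed (limma adjusted p = 0.0293). After quantile normalization Neurog2 passed too (limma adjusted p = 0.0369). Nhlh1 passed with a level class of at least 4 (limma adjusted p = 0.0449). The Neurod2 call was lost without day 9 replicate 1 labelled -Dox (limma adjusted p = 0.235), without day 7 replicate 1 or 2 labelled -Dox (limma adjusted p = 0.126 and 0.202) and without any one of the 4 rtTA arrays (limma adjusted p = 0.0534 or 0.057). Neurog2 passed without either rtTA array labelled +Dox (limma adjusted p = 0.0172). Of 17 pan-neuronal genes, 12 were higher and 0 lower at day 9 (median 0.95), and of 24 genes of proneural targets and neuronal commitment 12 were higher and 0 lower (median 0.64), where 6.26% of all genes were higher. Of 10 ES-cell markers 9 were higher and 0 lower.

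With Dox, 3 of the 14 were higher at day 9 than at day 7, where 5.18% of all probe sets were called higher and 3.92% lower (9.1% in either direction). Replicates were apart in 9 of the 14, 6 higher and 3 lower, where 52.1% of all probe sets were apart, 25% higher and 27.1% lower. The 3 called were Neurod2 by 1435411_at (1.69 ± 0.23, limma adjusted p = 0.00223) and by 1418995_at (0.73 ± 0.17, limma adjusted p = 0.0249), and Nhlh1 (0.998 ± 0.144, limma adjusted p = 0.00296). With only the arrays compared, the call of 1418995_at was lost (limma adjusted p = 0.0686). The call of 1418995_at was lost without day 7 replicate 1 or 2 labelled +Dox (limma adjusted p = 0.118 and 0.117) or day 9 replicate 1 labelled +Dox (limma adjusted p = 0.136). Neurog1 by 1438551_at was on the lower side, at -0.73 ± 0.23 (limma adjusted p = 0.0824), and passed without either rtTA array labelled -Dox (limma adjusted p = 0.0474). Neurod4 by 1418054_at, at 0.53 ± 0.18 (limma adjusted p = 0.109), passed without either rtTA array labelled +Dox (limma adjusted p = 0.0339). Nhlh1 at day 9 with Dox, 0.11 and 0.12, was still below its day 7 values without Dox, 0.88 and 0.71. The day 9 arrays labelled +Dox are those set furthest apart by the spike-in probe sets, and both comparisons of days share their arrays with the Dox responses.

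**Figure D3:**
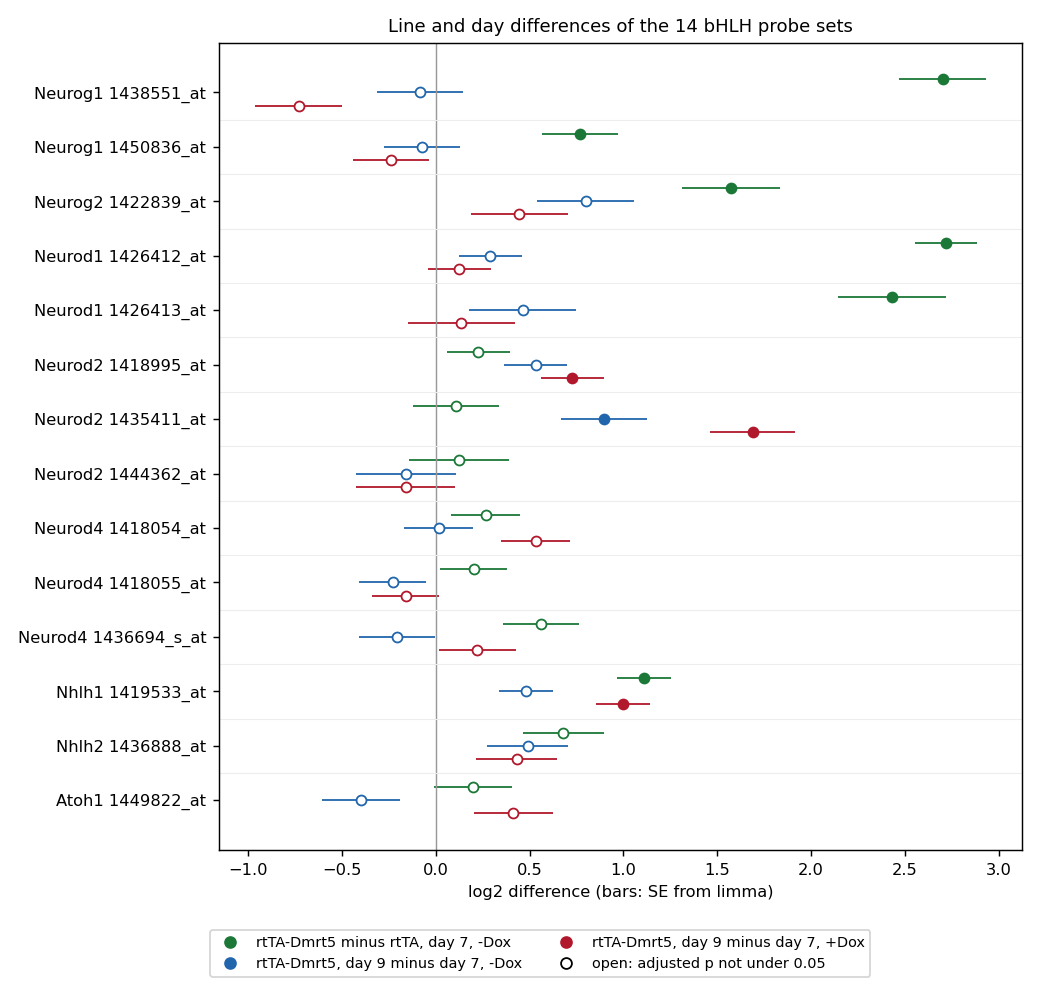
Log2 difference (x axis) of the 14 bHLH probe sets (y axis) for rtTA-Dmrt5 minus rtTA at day 7 without Dox and for day 9 minus day 7 of rtTA-Dmrt5 cells without and with Dox; bars are SE from limma and filled points passed adjusted p 0.05. Neurod1 and Neurog1 lie at 2.72 and 2.70 between the lines, and Neurod2 by 1435411_at has the largest difference between days, 1.69 with Dox.

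Other genes of the pathway were read from lists, each gene by its most variable probe set, and each count can be read against the share called among all 18193 genes. Lists share some genes, such as Hes6, Mfng and Tubb3. At day 7, 2.59% of all genes were lower and 2.03% higher in rtTA-Dmrt5 arrays labelled +Dox, and at day 9 9.66% were lower and 14.9% higher. Among 12 other neural bHLH activators, 2 were lower and 1 higher at day 7: Olig2 and Olig1, factors of motor neuron and oligodendrocyte progenitors, fell by 1.68 and 0.80 (SE 0.20 and 0.12), and Tal2, a midbrain GABAergic factor, was higher by 0.90 ± 0.16. At day 9, 4 were higher and 2 lower. Olig2 was then on the other side, at 0.92 ± 0.20, together with the cortical neuron factor Neurod6, whose level class is under 2 on the log2 scale (1.26 ± 0.12), while Ptf1a, which directs progenitors to GABAergic neurons, was lower (-1.74 ± 0.32). The days differed in the response of Olig2 (2.59 ± 0.29, limma adjusted p = 0.0118) and Neurod6 (1.49 ± 0.17, limma adjusted p = 0.0136). The Olig2 call was lost without replicate 1 of the day 7 arrays labelled +Dox (limma adjusted p = 0.0648) or labelled -Dox (limma adjusted p = 0.0694), or of the day 9 arrays labelled -Dox (limma adjusted p = 0.0605). That of Neurod6 was lost without any one of the 4 day 7 arrays of rtTA-Dmrt5 cells (limma adjusted p from 0.0544 to 0.0694) and without day 9 replicate 1 labelled -Dox (limma adjusted p = 0.0613). Ptf1a had come near the threshold at day 7 (-1.33 ± 0.32, limma adjusted p = 0.0548). Of the 2 measured E-proteins, the partners of these factors, Tcf3 was called at day 9 (0.82 ± 0.19, limma adjusted p = 0.016) and neither at day 7. Tcf12's most variable probe set was at -0.03 at day 7, yet 3 of its 5 probe sets were called there, and they ran from -1.02 to -0.03.

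Several inhibitors of bHLH factors were higher at day 9. Of 12 Hes, Hey and Id genes, 6 were higher and 2 lower with Dox (median 0.35): the Notch-induced repressors Hes1 (0.76 ± 0.16), Hey1 (0.77 ± 0.17), Hey2 (1.06 ± 0.21) and Heyl (1.02 ± 0.17, with 1 of its probe sets at -0.16), and the E-protein antagonists Id3 (1.15 ± 0.15) and Id4 (0.74 ± 0.10). The 2 lower ones were Id2 (-0.87 ± 0.19) and Hes6 (-0.58 ± 0.12), and Hes6 is itself a proneural target that counters Hes1. At day 7, 1 was higher, Id4 (1.07 ± 0.10), and 1 lower, Id2 (-0.89 ± 0.19), with a median of 0.21. Of 12 Notch receptors, ligands and modifiers, the glycosyltransferase Lfng was higher at day 7 (1.03 ± 0.11). At day 9, Lfng (0.72 ± 0.11) and Mfng (0.62 ± 0.10) were higher and the ligands Jag2 (-0.95 ± 0.11) and Dll3 (-0.52 ± 0.14) lower. Dll1, the ligand that proneural factors induce, was at 0.01 ± 0.19 at day 7 and 0.29 ± 0.19 at day 9 and was not called, and it is named after its values were seen. Between the lines the response at day 7 differed for Id4 (1.10 ± 0.14, limma adjusted p = 0.00692) and Lfng (1.09 ± 0.16, limma adjusted p = 0.0129). The call of Lfng was lost without replicate 1 or 2 of the day 7 rtTA-Dmrt5 arrays labelled +Dox (limma adjusted p = 0.0609 and 0.0505), without replicate 2 of those labelled -Dox (limma adjusted p = 0.0741) and without replicate 2 of the rtTA arrays labelled -Dox (limma adjusted p = 0.0609).

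Some genes downstream of proneural factors fell at either day. Of 24 targets and commitment genes, 6 were lower and 0 higher at day 7 (median -0.41): Ebf1 and Ebf2, which act in differentiating neurons, fell by 1.57 and 0.95 (SE 0.12 and 0.14), the zinc-finger factors Myt1 and Insm1 by 0.85 and 0.80, the neuronal tubulin gene Tubb3 by 0.68 and the RNA-binding protein gene Elavl4 by 0.64. At day 9, 11 were lower and 1, Mfng, higher (median -0.35), with Ebf1 at -1.76 ± 0.12 (limma adjusted p = 4.44e-05) and Insm1 at -1.07 ± 0.17 (limma adjusted p = 0.00291). Of 17 pan-neuronal genes 8 were lower and 1 higher at day 7 (median -0.61), and 10 were lower and 0 higher at day 9 (median -0.49). The neurofilament genes Nefm (-1.61 ± 0.20) and Nefl (-1.26 ± 0.11) led the falls at day 7, and Rbfox3, the neuronal nuclear antigen NeuN, was the 1 gene higher (0.68 ± 0.14). The mean of the pan-neuronal list lay between -1.04 and -0.89 in day 7 arrays labelled +Dox, against -0.37 to -0.33 in those labelled -Dox. At day 9 it lay between -0.13 and -0.09 in the arrays labelled +Dox, against 0.61 to 0.63 in those labelled -Dox. Between the lines the response differed for Ebf1 alone of the 24 (-1.62 ± 0.18, limma adjusted p = 0.00295) and for 5 of the 17 pan-neuronal genes, Stmn2, Stmn4, Nefl, Nefm and Ina, all lower. The calls of Ebf1 and Nefl were kept with each array left out. Those of Stmn2, Stmn4, Nefm and Ina were lost without replicate 1 or 2 of the day 7 rtTA-Dmrt5 arrays labelled -Dox, replicate 2 of those labelled +Dox or replicate 2 of the rtTA arrays labelled -Dox, among others (limma adjusted p from 0.0629 to 0.158). In rtTA cells, 0 genes of any list were called between arrays labelled +Dox and -Dox.

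Lists of neuron subtypes in which single bHLH factors act were read too. Of 11 genes of the Atoh1 lineage and rhombic lip, 7 were lower and 0 higher at day 7 (median -1.49), although Atoh1 itself was not called. They were Mab21l1 (-3.36 ± 0.22), Zic1 (-2.03 ± 0.23), Pax6 (-1.93 ± 0.16, its 5 probe sets running from -1.93 to -0.11), Lhx2, Lhx9, Barhl2 and Nrn1, all of which are also used in other neural tissues. At day 9, 9 were lower and 1 higher (median -1.02). Of 10 sensory neuron and placode genes, where Neurog1 acts in cranial ganglia, 3 were lower and 1 higher at day 7, and 5 lower and 2 higher at day 9, with the sensory neuron factor Pou4f1 at -2.71 ± 0.16 (limma adjusted p = 1.49e-05) at day 9. Of 10 GABAergic neuron genes 1 was lower at day 7 and 8 at day 9 (median -1.26), among them Gad2, a GABA-synthesising enzyme, at -2.34 ± 0.15. Of 10 glutamatergic and cortical neuron genes, where Neurog2 and Neurod2 act, 2 were higher and 1 lower at day 7, and 5 were higher and 2 lower at day 9, with Bcl11b at 1.36 ± 0.19 and the vesicular transporter Slc17a6 at -0.87 ± 0.21.

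Some markers of non-neural and earlier states were higher in the same arrays. Of 10 ES-cell markers 3 were higher and 0 lower at day 7 and 6 were higher and 0 lower at day 9. Their mean was -0.61 in either day 7 array labelled +Dox, against -1.15 and -1.08 in those labelled -Dox, and at day 9 it was 0.42 and 0.55 in the arrays labelled +Dox, against -0.19 and -0.11 in those labelled -Dox. Of 10 surface epithelium markers 4 were higher and 0 lower at day 7 and 7 higher and 1 lower at day 9, with list means of 0.51 to 0.55 and 0.55 to 0.64 in the arrays labelled +Dox at the 2 days, against -0.11 to -0.04 and -0.37 to -0.22 in those labelled -Dox. Of 11 mesoderm and endoderm markers 0 were called at day 7 and 7 were higher at day 9. Cell cycle genes were called 0 of 11 at day 7, and 6 higher and 1 lower at day 9, while of 12 neural progenitor genes 5 were lower and 0 higher at day 7, led by Pax6 and Fabp7 (-1.78 ± 0.11), and 4 were lower and 1 higher at day 9 (median -0.28). Midbrain dopaminergic genes were called 2 higher and 2 lower of 11 at day 7, and 1 higher and 2 lower at day 9. Neural crest markers were called 2 lower of 8 at day 7, and 3 higher and 2 lower at day 9. Glia markers were called 1 higher and 2 lower of 10 at day 7, and 2 higher and 1 lower at day 9. Cell cycle exit genes were called 0 of 10 at day 7, and 1 higher and 3 lower at day 9. No marker is known to be at 0, since the values hold no level, and the part of these cells in the bHLH results was not tested.

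**Figure D4:**
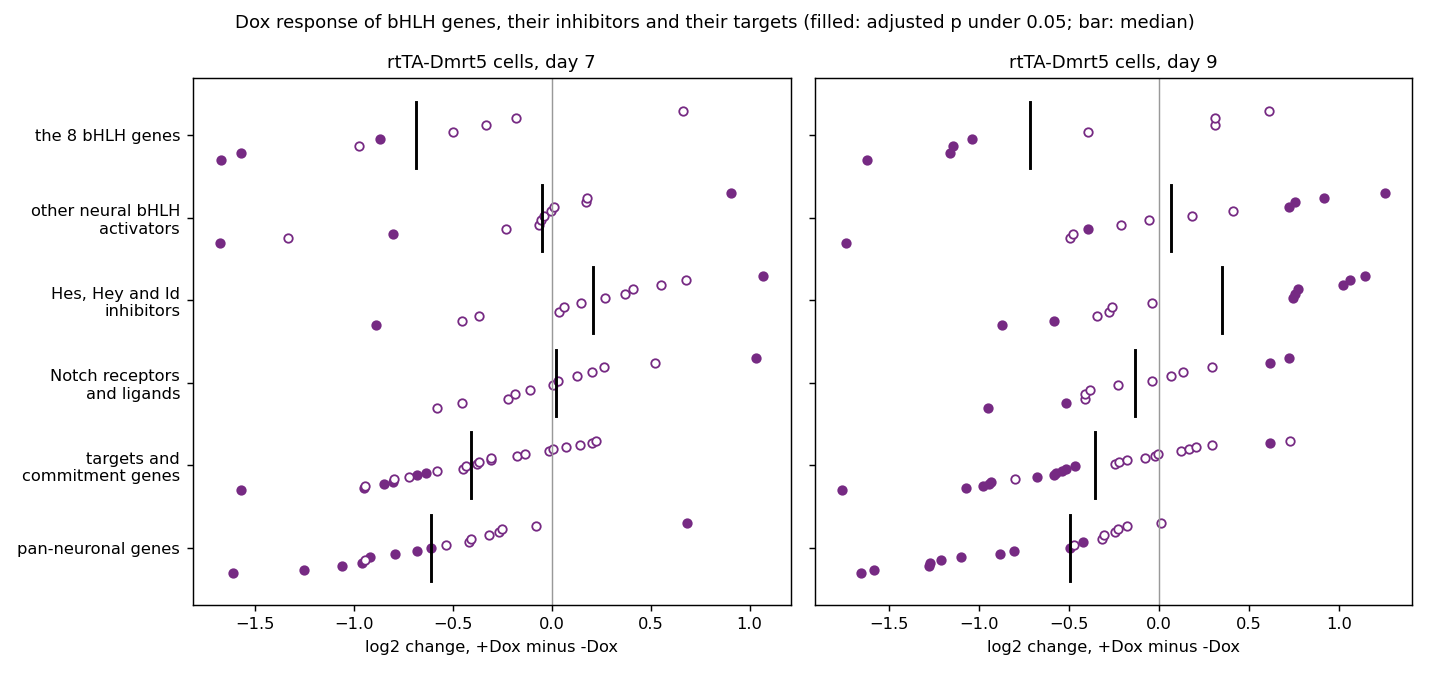
Log2 change, arrays labelled +Dox minus arrays labelled -Dox (x axis), in rtTA-Dmrt5 cells at day 7 (left) and day 9 (right) for the genes of 6 lists (y axis), each gene by its most variable probe set; filled points passed adjusted p 0.05 and bars are list medians. At day 9 the medians were -0.72 for the 8 bHLH genes, 0.35 for the Hes, Hey and Id inhibitors and -0.35 for the targets.

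The genes whose values followed a bHLH gene most closely were found by Pearson correlation over the 12 arrays. The search covered 3080 probe sets of other genes, with a single symbol and a standard deviation of at least 0.5. The arrays fall into 6 groups, so r holds differences between groups as well as between replicates, and arrays of a line or day share more than a bHLH gene. Closest to Neurog1 was Septin4 (r = 0.987), to Neurog2 Daam2 (r = 0.986) and Igfbpl1 (r = 0.985), and to Neurod1 Rsph9 (r = 0.987). Over the 8 rtTA-Dmrt5 arrays alone, Igfbpl1 kept r = 0.981 with Neurog2 and Daam2 r = 0.917. Closest to Nhlh1 were Rftn2 (r = 0.978) and Mab21l1 (r = 0.976), to Neurod4 B130024G19Rik (r = 0.96), to Nhlh2 Atl1 (r = 0.973) and to Neurod2 Tmem176b (r = 0.95). Atoh1 varied too little for the search.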

How the data were processed

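RNA of 12 samples was amplified from 5 ng of total RNA with a NuGEN Ovation kit, labelled with biotin and hybridised to Affymetrix arrays, per the labels' protocols. The authors deposited log2 values made with RMA, per the submitters' processing notes; those notes give no version of it. Every probe set of the deposited table has a median of 0 over the 12 arrays, a centring that no source states, so the log2 base is taken from RMA's definition and larger values are taken as more RNA. Scanner files were not analysed here. Of 45101 probe sets, 64 controls were left out, and 34945 of the rest had a single symbol in the platform annotation, 932 several and 9160 none.

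The group means of all 12 arrays were fitted with limma 3.58.1 in R 4.3.3 (6 residual and 3.92 prior degrees of freedom), with 8 contrasts and Benjamini-Hochberg adjustment over 45037 probe sets. The script was tested on simulated data. Each list gene was read by its probe set with the largest standard deviation; the text names every bHLH probe set and list genes with a probe set called in a Dox response of rtTA-Dmrt5 cells. Level classes were read from the spacing of the stored numbers. The members and lists were chosen with earlier results of these data known. Alternatives were weights, a robust prior, another normalization or shift, a level filter, a replicate block, 1 row per gene, fewer arrays and each array left out. Tables and figures used Python 3.11.15, pandas 2.3.3, numpy 2.4.6 and matplotlib 3.10.9.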

Additional observations from a re-analysis of the deposited data

Results flagged for a closer look

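The Dox response of Nhlh1 differed between the lines at day 7 by the test of the difference itself (-1.71 ± 0.20 SE, limma adjusted p = 0.00452). Nhlh1 read -0.78 and -0.98 in rtTA-Dmrt5 arrays labelled +Dox, against 0.88 and 0.71 in those labelled -Dox, and -0.11 and -0.46 in rtTA arrays labelled +Dox, against -0.44 and -0.20 in those labelled -Dox. The direction rests on the labels. The Dmrta2 probe set fell where the transgene should be on, and whether it reads transgene RNA is not known.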

How the results depend on the processing

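Of 165 counts of bHLH probe sets or genes recomputed under the alternatives, 153 were within 1.5 times the count given above and no called value changed its sign. Among single values, 63 from 33 results that were not called did change sign, as for Neurod2 by 1435411_at in the Dox response at day 7 (-0.47 to 0.11). The calls of Nhlh1 and of Neurod4 by 1418054_at and 1436694_s_at at day 7 and day 9 were kept in every alternative. The difference between the lines was called for 1 probe set, and for 2 with array quality weights, 5 after a further quantile normalization, 3 with a level class of at least 4 and 1 to 2 with each array left out in turn; with 1 row per gene it was called for 2 genes, Neurog1 (-0.94, limma adjusted p = 0.0299) and Nhlh1. Day 9 minus day 7 without Dox was called for 1, and for 2 after quantile normalization, 0 to 1 with each array left out, and 2 genes with 1 row per gene. With each array left out, the counts ran from 3 to 6 for the Dox response at day 7, 5 to 7 at day 9, 2 to 4 for day 9 minus day 7 with Dox and 5 to 7 between the lines without Dox. Without the day 9 arrays labelled +Dox, an alternative chosen after seeing the data, the Dox response at day 7 had 5 calls. Replicate numbers did not pair the samples (correlations of deviations -0.0607, 0.143 and 0.0282); the replicate block left 3 calls at day 7, losing Neurod1 by 1426412_at (limma adjusted p = 0.0874), and changed no other bHLH count. It also ended the calls of Olig2 and Neurod6 between the days (limma adjusted p = 0.0716 and 0.0571) and of Id4, Lfng, Stmn2, Stmn4, Nefm and Ina between the lines (limma adjusted p from 0.0539 to 0.0793). Over all probe sets, the 1372 calls at day 7 became 2666 with weights, 2557 after quantile normalization and 775 with only the arrays compared, and 496 to 1499 with an array left out. With only the arrays compared, 8230 calls at day 9 became 3426, and day 9 minus day 7 had 1984 for 3447 without Dox and 1491 for 4098 with Dox. Between the lines there were 225 calls with the block and 875 after quantile normalization, for 468. Between the days there were 0 with the block, 601 with the level class and 72 with only the arrays compared, for 288, and the parental response had 1 with the block, for 0. With each array left out, the counts ran from 4068 to 8176 at day 9, 173 to 471 between the lines, 5 to 625 between the days, 1210 to 3850 and 1299 to 4053 for day 9 minus day 7 without and with Dox, and 4100 to 9100, for 8408, between the lines without Dox. The causes were not tested. With 2 arrays a group and no level, signal over background could not be read, and dim probe sets such as that of Atoh1 limit what a missed call says.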
